A study of Homo sapiens with 40 samples.

Results

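Heregulin (HRG) was compared with vehicle in BT474R cells after 12 h by ATAC-seq, which reads where a transposase can cut the chromatin and so gives open regions as peaks. The comparison held 4 of the 40 libraries of the series, 2 treated with HRG and 2 with vehicle (water), each with its own deposited list of peaks. BT474 is an established HER2-overexpressing breast cancer line, and BT474R is a single clone of it that had been grown in trastuzumab and resists that antibody, so every BT474R value describes 1 clone. Both groups were serum starved before treatment, and both were kept in starvation medium during it. The other libraries came from BT474R and BT474 at 0, 1, 12 and 24 h with vehicle, HRG or EGF, and they served here only as lists that took no part in the calls. Peaks of the 4 lists on chromosomes 1 to 22 and X that overlapped by 1 bp or more were merged into 47130 regions. A region was called open in HRG only when both HRG lists and neither vehicle list had a peak there, and open in vehicle only in the opposite case. All positions are hg38.

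HRG is a soluble growth factor that binds the receptors HER3 and HER4, which then pair with HER2 and pass the signal to the RAS-ERK and PI3K-AKT pathways. ERK activity induces immediate early genes such as EGR1 and the FOS and JUN families, and FOS and JUN proteins pair to form AP-1, a factor that binds DNA at enhancers. Feedback genes such as the dual-specificity phosphatase DUSP6 and the Sprouty protein SPRY4 later damp the same pathway. The label of the cells was checked against promoters, taken as 1 kb on either side of a transcript start. All 11 markers of luminal HER2-overexpressing epithelium, among them ERBB2, GRB7, KRT8, EPCAM and GATA3, had a promoter peak in all 4 lists. Of all 19970 protein-coding genes 11522 had one in all 4 lists and 7236 in none. The 11 markers also had one in every BT474 list, so they do not tell BT474R from BT474. Of 10 markers of blood, endothelial, stromal and liver cells, 2 (COL1A1 and CDH5) had one in all 4, and no other of the 10 had a promoter peak in any of them. The ERBB2 promoter held the top rank percentile, 100, in each of the 4 lists, the EGFR and ERBB3 promoters had peaks in all 4, and the ERBB4 promoter had none.

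The sequences below are the 200 bases around the peak summit of regions that the comparison turns on, read from the hg38 plus strand. IER3, METTL21A and PLXNA2 name the 3 strongest regions open in HRG only, EGR1 the strongest open in vehicle only, and KRT7 a region open in HRG only near a luminal keratin gene. ANKRD60, TTPAL, SPRY4 and LDHA name regions that were open in all 4 lists and ranked higher after HRG. Capitals mark each match to the AP-1 motif TGANTCA, where N is any base. The motif was searched on both strands. The EGR1 window held no match and each of the other 8 held 1 or 2. These windows are examples, and over whole sets a match within 100 bp of the summit was less common. It was found in 32.9% of regions open in HRG only and in 14.5% of all merged regions. Among regions with 1 peak in each list, 45.3% of those ranked higher had one, against 12.1% of all. Regions near RASSF8 and NDUFA4L2, among the next strongest open in HRG only, had none and are not printed.
IER3, chr6:30748965-30749164: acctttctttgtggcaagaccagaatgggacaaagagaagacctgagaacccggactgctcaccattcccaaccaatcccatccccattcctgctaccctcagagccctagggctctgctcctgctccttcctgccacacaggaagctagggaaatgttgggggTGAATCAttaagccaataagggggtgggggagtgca
METTL21A, chr2:207633304-207633503: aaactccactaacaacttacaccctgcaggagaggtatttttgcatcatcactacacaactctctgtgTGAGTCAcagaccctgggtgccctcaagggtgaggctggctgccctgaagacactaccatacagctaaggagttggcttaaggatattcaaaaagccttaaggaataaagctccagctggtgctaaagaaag
PLXNA2, chr1:208107956-208108155: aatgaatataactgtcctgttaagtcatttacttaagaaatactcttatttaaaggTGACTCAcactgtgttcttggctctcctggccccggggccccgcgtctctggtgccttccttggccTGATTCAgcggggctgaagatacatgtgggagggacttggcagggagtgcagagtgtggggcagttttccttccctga
KRT7, chr12:52215599-52215798: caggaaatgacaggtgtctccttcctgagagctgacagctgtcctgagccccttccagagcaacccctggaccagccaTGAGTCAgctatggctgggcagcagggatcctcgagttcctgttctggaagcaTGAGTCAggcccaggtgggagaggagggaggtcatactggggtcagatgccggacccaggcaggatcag
TTPAL, chr20:44495822-44496021: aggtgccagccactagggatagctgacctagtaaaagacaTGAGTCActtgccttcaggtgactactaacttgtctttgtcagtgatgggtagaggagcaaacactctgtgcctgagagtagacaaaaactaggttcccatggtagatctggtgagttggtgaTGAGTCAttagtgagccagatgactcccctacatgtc
ANKRD60, chr20:58252167-58252366: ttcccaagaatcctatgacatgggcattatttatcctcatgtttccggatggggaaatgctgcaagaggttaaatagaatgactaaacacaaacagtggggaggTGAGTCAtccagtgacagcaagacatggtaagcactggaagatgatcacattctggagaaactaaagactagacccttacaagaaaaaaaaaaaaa
SPRY4, chr5:142342362-142342561: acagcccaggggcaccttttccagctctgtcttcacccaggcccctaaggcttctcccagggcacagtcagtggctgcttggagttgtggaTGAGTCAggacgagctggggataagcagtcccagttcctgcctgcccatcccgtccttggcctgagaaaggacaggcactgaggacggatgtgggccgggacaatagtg
LDHA, chr11:18383793-18383992: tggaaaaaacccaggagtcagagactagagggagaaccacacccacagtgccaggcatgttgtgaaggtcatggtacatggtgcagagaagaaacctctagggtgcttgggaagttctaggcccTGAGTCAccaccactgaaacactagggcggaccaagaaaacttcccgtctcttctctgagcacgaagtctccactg
EGR1, chr5:138470156-138470355: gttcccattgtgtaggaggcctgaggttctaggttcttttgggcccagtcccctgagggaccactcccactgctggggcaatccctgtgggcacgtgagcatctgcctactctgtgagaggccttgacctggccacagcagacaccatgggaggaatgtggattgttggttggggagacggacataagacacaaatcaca

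The HRG lists were longer than the vehicle lists. They held 45808 and 42604 peaks (44206 ± 2266, SD, n = 2) and the vehicle lists 32479 and 40331 (36405 ± 5552, SD, n = 2). The groups did not overlap, and the difference of 7801 peaks gave p = 0.333 in a two-sided exact permutation test, the smallest p that 2 against 2 libraries allow. In bases the HRG lists covered 28.1 and 26.4 Mb and the vehicle lists 19.7 and 24.1 Mb, a difference of 5.36 Mb (p = 0.333 in the same exact test). The first vehicle list was the shortest of all 40 in the series. Since read totals do not come with these lists, the depth behind each list is not known here, and a list without a peak at a region is one in which none was called there. By covered bases the HRG lists shared 84.4% with each other (Jaccard index), while the vehicle lists shared 77.3%, less than the 79.7 and 81.3% that the second vehicle list shared with the HRG lists. For this reason each count is given with all peaks and with an equal number of top peaks per list, the 32479 with the highest score. Nothing in the labels says whether the 2 libraries of a group came from separate cultures, so the errors and p-values cover only the spread between these libraries.

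With all peaks, 3541 of the 47130 regions (7.51%) were open in HRG only and 28 (0.0594%) in vehicle only. Peaks in all 4 lists were found at 30989 regions. Just outside the call, 6315 regions had a peak in both HRG lists and in 1 vehicle list, and 4063 in 1 HRG list alone. With equal numbers of top peaks, 1136 of 36045 regions (3.15%) were open in HRG only and 673 (1.87%) in vehicle only. Thus 99.2% of the calls were on the HRG side with all peaks and 62.8% with equal numbers. Without the short first vehicle list the counts from all peaks were 3641 and 644, and without the second vehicle list they were 9756 and 55. The HRG side held more regions in each of these counts. For a single region, presence in 2 against 2 libraries cannot go below p = 0.333 in an exact permutation test, so presence calls are descriptions.

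**Figure D1:**
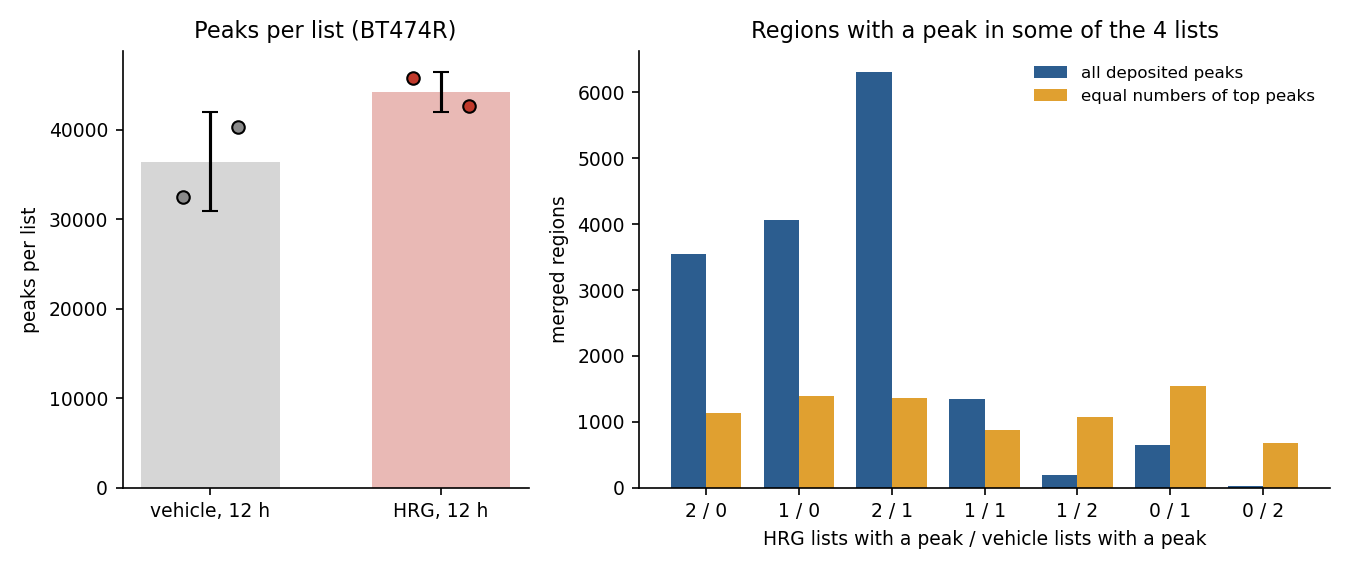
Left, peaks per list on chromosomes 1 to 22 and X in the vehicle and HRG libraries at 12 h; points are libraries, bars are means and error bars are 1 SD (n = 2). Right, merged regions by the number of HRG and vehicle lists with a peak, with all deposited peaks and with the 32479 top peaks of each list, leaving out regions with a peak in all 4. Regions with 2 HRG and 0 vehicle lists number 3541 and 1136, and those with 0 and 2 number 28 and 673.

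The rank of a peak within its own list, given as the percentile of its score with 100 the strongest, changed sign with equal numbers. Over the 30989 regions with a peak in all 4 lists, the mean percentile in HRG minus that in vehicle had a median of 5.46 (interquartile range 1.45 to 11.7), and with equal numbers it had a median of -0.746. Percentiles are used here to show where single regions stood in each list, and tests were run on ranks among the same regions.

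The strongest region open in HRG only lay 4.52 kb upstream of IER3, an immediate early gene that protects cells from apoptosis, at chr6:30748796-30749898. Its peak ranked at the 78.9 and 80.7 percentile of the HRG lists. In the other BT474R lists it stood at 97.0 and 95.8 after EGF for 12 h, at 82.2 and 79.8 after HRG for 24 h, and at 16.8 and 25.8 in vehicle at 24 h. At 12 and 24 h it was thus high in each ligand list of BT474R and low or absent in vehicle. At 1 h it was open in every arm, at 46.5 and 65.6 in vehicle and 61.1 and 78.0 after HRG. In BT474 it had no peak in any baseline or vehicle list. The neighbouring region at chr6:30751932-30752983, open in all 4 lists, ranked at 93.0 and 92.8 in HRG and 79.7 and 87.2 in vehicle.

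A region 7.48 kb upstream of METTL21A, a protein methyltransferase gene, at chr2:207632647-207633544, ranked at 72.3 and 73.1 in the HRG lists. BT474 had no peak there in its baseline and vehicle lists but ranked it at 37.9 and 36.7 after HRG for 12 h. An intron of PLXNA2, a semaphorin receptor, held a region at chr1:208107830-208108685 with percentiles of 69.2 and 66.7. In BT474 that region was open in both arms, at 55.1 and 45.6 in vehicle and 81.4 and 81.3 in HRG at 12 h. The 3 regions kept the call with equal numbers, and each had an AP-1 match. Among the next in order, one lay near RASSF8 (62.0 and 59.3) and one at the promoter of NDUFA4L2, a mitochondrial protein gene known as a hypoxia target (58.5 and 57.4), both without an AP-1 match. The RASSF8 and NDUFA4L2 regions were open in both BT474R vehicle lists at 1 h, at 62.4 and 60.2 and at 62.2 and 65.6, so the vehicle lists at 12 h lacked a peak that earlier vehicle lists had.

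The strongest of the 28 regions open in vehicle only started at the end of EGR1, the zinc-finger immediate early factor (chr5:138469220-138470664). The peak summit of this region lay 4.78 kb downstream of the gene's start. Its percentiles were 55.7 and 64.5 in the vehicle lists. No EGF list of BT474R at 12 or 24 h had a peak there. In BT474 at 12 h the region was present in all 4 lists and ranked at 97.9 and 97.7 in vehicle against 59.3 and 60.3 in HRG, and at 24 h at 99.98 and 99.97 against 54.1 and 31.6. At 1 h the order was the opposite in BT474, with 90.9 and 91.8 in vehicle and 99.0 and 99.2 in HRG. The EGR1 region thus stood lower with HRG at 12 and 24 h in BT474 and higher at 1 h, while in BT474R all 6 lists at 1 h ranked it between 84.7 and 87.9. In BT474 at 12 h, 41129 regions had exactly 1 peak in each of the 4 lists. A fit by limma over these regions gave a rank difference of -1.94 ± 0.0432 (SE) at the EGR1 region (Benjamini-Hochberg adjusted p = 4.37e-08).

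With equal numbers, a region 4.04 kb downstream of the start of JUN, which encodes an AP-1 subunit, was also open in vehicle only, at 43.4 and 34.9 (chr1:58779711-58780341). None of the ligand lists of BT474R at 12 or 24 h had it among their top peaks. The vehicle lists of BT474R at 24 h had it at 36.4 and 39.9, and those of BT474 at 12 h at 43.5 and 39.9. The other regions open in vehicle only were weaker or less regular. One near PIM3, a serine/threonine kinase gene, had percentiles of 36.7 and 64.2 in vehicle but of 95.4 and 70.5 after HRG at 24 h. The promoters of GSDMB (25.1 and 12.9), MFSD2A (15.5 and 12.3) and SGSH (9.29 and 10.2) lost the call with equal numbers of top peaks.

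**Figure D2:**
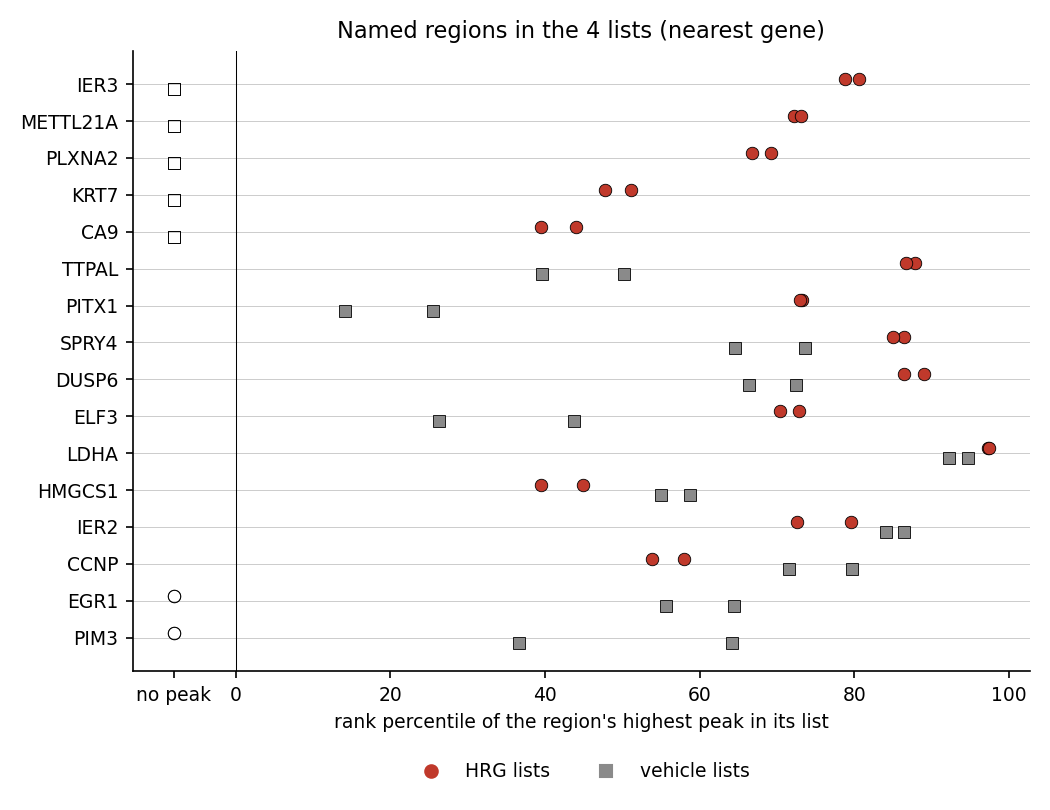
Rank percentile of the highest peak of each region in its list (x axis; open symbols, no peak) for 16 regions named by their nearest gene, in the 2 HRG lists (circles) and the 2 vehicle lists (squares) of BT474R at 12 h. The upper 5 were open in HRG only and the lowest 2 in vehicle only; in between, PITX1 stood at 73.3 and 73.0 in HRG and 14.2 and 25.6 in vehicle.

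Regions open in HRG only had a median width of 342 bp, against 507 bp for all merged regions, and their peaks had a median percentile of 13.7. The 28 regions open in vehicle only had a median width of 369 bp and a median percentile of 7.82. With equal numbers the widths were 466 bp in HRG only and 311 bp in vehicle only, and the percentiles 13.1 and 8.08. With all peaks, promoters made up 12.4% of the regions open in HRG only and 32.6% of all merged regions. Of the regions open in HRG only 41.1% lay in introns and 43.9% between genes. The median distance to a protein-coding gene start was 46.0 kb in HRG only, 42.8 kb in vehicle only and 21.8 kb in all merged regions. With equal numbers the promoter shares were 9.24% in HRG only, 26.7% in vehicle only and 37.4% in all regions. The share of all peaks that lay at promoters was 33.2 and 34.5% in the HRG lists and 40.4 and 36.3% in the vehicle lists. That difference of -4.54 percentage points (exact permutation p = 0.333, two-sided, the smallest possible) was -1.202 with equal numbers.

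The AP-1 motif marked the HRG side. It was found within 100 bp of the summit in 32.9% of the 3541 regions open in HRG only, and in 14.5% of all merged regions. Regions just outside the call had it in 17.6% (2 HRG lists and 1 vehicle list) and 18.2% (1 HRG list alone). With equal numbers the shares were 41.5% in HRG only, 5.65% in vehicle only and 13.5% in all regions. The order was the same with all peaks and with equal numbers. With equal numbers FOXA, the motif of the pioneer factors of luminal cells, was present in 13.8% of the regions open in vehicle only, 7.75% of those open in HRG only and 7.51% of all. GATA (3.43%, against 1.80% of all regions) and TEAD (5.90% against 3.85%) had higher shares in HRG only with equal numbers. E-box (2.38% against 5.12%), NF-Y (2.11% against 4.89%) and ETS (0.35% against 2.32%) motifs, which are common at promoters, had lower ones. A match is a run of letters and does not show that a factor was bound there.

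**Figure D3:**
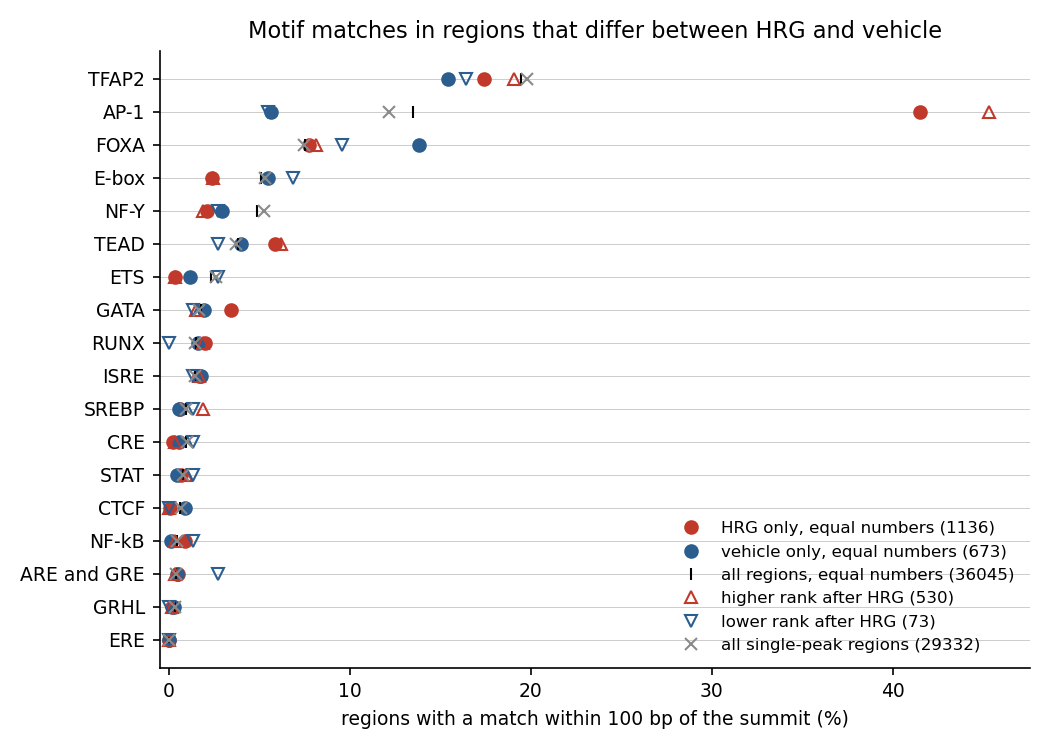
Share of regions (x axis, percent) with a match to each of 18 motifs within 100 bp of the summit. Filled circles are regions open in HRG only (red) and vehicle only (blue) with equal numbers, and triangles are single-peak regions of higher (up) and lower (down) rank after HRG, with all regions as bars and crosses. AP-1 stands at 41.5% and 45.3% on the HRG side and at 5.65% and 5.48% on the vehicle side.

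Changes within regions that were open in all 4 lists were tested on the rank of the highest peak score, turned into normal scores (a scale on which the ranked regions follow a standard normal curve) and compared by limma with Benjamini-Hochberg adjustment. Of 30989 regions, 256 (0.826%) ranked higher after HRG and 9 (0.0290%) lower at an adjusted p under 0.05. How peaks were split bore on these calls. In 151 of the 256 the number of peaks differed between lists, and the 6 of smallest p, near MXRA5, HRC, EYS, TMBIM1, MAP1LC3A and SRCIN1, were each 1 peak in both HRG lists and 2 or 3 peaks in the vehicle lists. At the MXRA5 promoter the difference was 1.34 ± 0.0411 (SE, adjusted p = 0.00209). On the summed score of a region only SRCIN1 of these 6 passed (0.537, adjusted p = 0.00825). AP-1 matches were found in 58.1% of the 105 called regions with 1 peak in each list and in 19.9% of the other 151.

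The test was therefore also run on the 29332 regions with exactly 1 peak in every list, an alternative chosen after seeing the data. There 530 regions (1.81%) ranked higher after HRG and 73 (0.249%) ranked lower. At an unadjusted p under 0.05 the counts were 3209 and 2480. The higher regions lay at promoters in 13.6% of cases and the lower in 39.7%, against 39.5% of all single-peak regions. AP-1 matches were found in 45.3% of the higher, 5.48% of the lower and 12.1% of all. The counts moved with each library. Without the second HRG library 21 and 4 regions passed, without the first 184 and 50, and without the vehicle libraries in turn 887 and 105 (first) and 2011 and 373 (second). Of 42 named single-peak regions, 11 passed in all 4 of these fits, and none of the 42 changed direction.

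**Figure D4:**
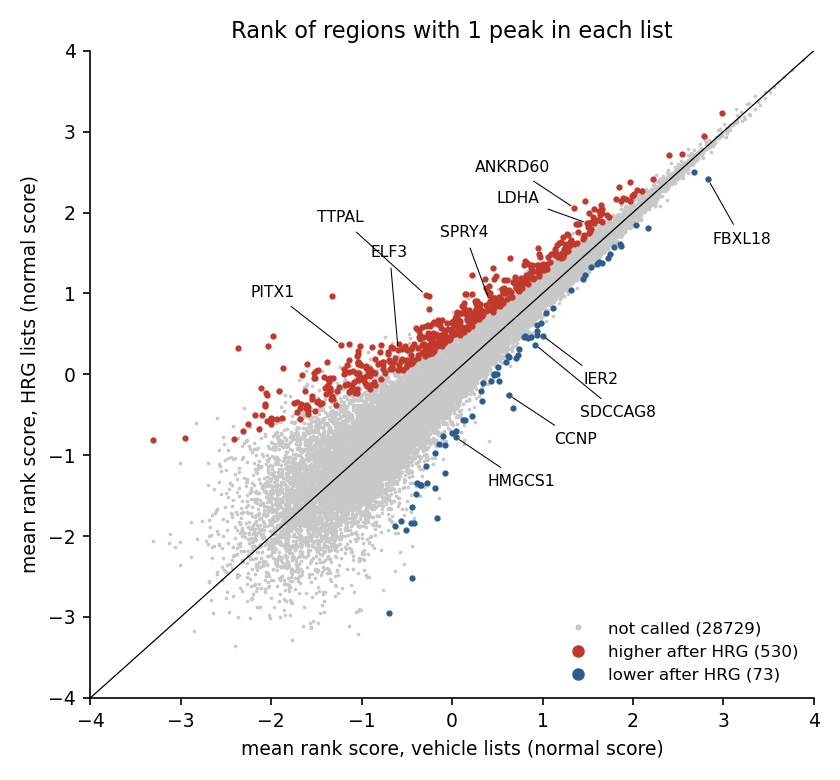
Mean normal score of each of the 29332 single-peak regions in the vehicle lists (x axis) and the HRG lists (y axis), with 530 regions of higher rank in red, 73 of lower rank in blue, the rest in grey and the line of equal rank in black. Called regions run along both sides of the line and are more numerous above it, and TTPAL and PITX1 lie far above.

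The smallest adjusted p, 0.00105, was shared by 3 regions. One lay between genes 23.6 kb from ANKRD60 (chr20:58251241-58253156), with percentiles of 98.3 and 98.1 in HRG and 91.4 and 91.9 in vehicle (difference 0.704 ± 0.0420, SE). Another lay 20.05 kb from TTPAL, with its edge over the gene body of SERINC3 (chr20:44495313-44496419), at 87.9 and 86.7 against 39.6 and 50.3 (1.28 ± 0.0764). The third, in an intron of GRIK3, a kainate receptor gene, stood at 98.6 and 98.5 against 92.2 and 94.2 (0.669 ± 0.0401). In each the HRG lists lay above both vehicle lists, as they did at 49.8% of the 30989 regions with a peak in every list. The test that picked these regions used the same lists, so this order is only a description. These regions also held in every fit that left out a library. Others that held in each of those fits lay 184.6 kb from P3H2, a collagen prolyl hydroxylase gene (0.838), in an intron of FAM174B (0.722), 4.75 kb upstream of the integrin gene ITGA3 (0.406), at a transcript start of LMNA (nearest gene start SEMA4A, 0.460) and in an intron of PRKCE (nearest gene start EPAS1, 0.547).

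A region with a wide gap between the groups lay 93.2 kb from PITX1, a homeobox factor gene (chr5:135127104-135128147). It ranked at 73.3 and 73.0 in HRG and at 14.2 and 25.6 in vehicle (1.59 ± 0.146, adjusted p = 0.00797). The EGF lists at 12 h had it at 49.3 and 42.7, between the groups, and those at 24 h at 84.7 and 87.3. Without the second HRG library the adjusted p was 0.0601.

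Among regions of lower rank, one in an intron of AKT2 (nearest gene start CCNP, chr19:40249304-40250171) fell from 71.6 and 79.7 in vehicle to 58.0 and 53.9 in HRG (-0.889 ± 0.0883, adjusted p = 0.00828). A region that overlapped ACTB, the beta-actin gene (nearest gene start FBXL18), stood at 99.7 and 99.7 in vehicle and 99.2 and 99.3 in HRG (-0.422 ± 0.0340, adjusted p = 0.00509). STAC2 carried a region in its intron at 80.6 and 74.2 in vehicle and 48.9 and 54.9 in HRG (-1.09 ± 0.156, adjusted p = 0.0179), and it passed in every fit that left out a library. Others among those of smallest p lay near SDCCAG8, HECTD4, TOB1, PIM3 and VSTM2A, with differences of -0.359 to -2.07.

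Each region was given to the protein-coding gene whose start was closest, up to 100 kb away, which names a neighbour and not a target. A region open in HRG only was assigned to 2117 of 19970 genes (10.6%) with all peaks and to 716 (3.59%) with equal numbers. One open in vehicle only was assigned to 19 (0.095%) with all peaks and to 530 (2.65%) with equal numbers. With all peaks a promoter open in HRG only was seen at 158 genes (0.791%) and one open in vehicle only at 3. With equal numbers these were 54 and 83 genes, so the larger side changed. Single-peak regions of higher rank were assigned to 357 genes (1.79%) and of lower rank to 58 (0.290%). The gene lists, leaving out the marker lists and the genes the study discusses, together held 256 genes. Of these 70 had a region open in HRG only (29 with equal numbers). The lists' genes had 1116 assigned regions. Of those 7.80% were open in HRG only, against 6.52% of the 37716 assigned to any gene, so counts of list genes are read below against regions as well.

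Receptors and ligands came first. Of the 4 ERBB receptor genes, 1 (EGFR) had a region open in HRG only, 22.8 kb upstream and weak in both HRG lists (18.2 and 18.9). That was 5.88% of the 17 regions of these genes, against 6.52% of all. A region 2.98 kb upstream of ERBB2, at a transcript start of the neighbour gene PGAP3 (chr17:39684023-39685140), ranked lower after HRG, at 20.1 and 21.5 against 36.4 and 45.4 (-1.42 ± 0.251, adjusted p = 0.0345). No BT474 list had a peak there, and the EGF lists at 12 h had it at 81.2 and 58.6. Of 11 ligand genes, EGF, BTC, TGFA and AREG had a region open in HRG only with all peaks, at percentiles of 6.19 to 27.0. These were 26.7% of the 15 regions of the list, against 6.52% of all. With equal numbers none of the 11 genes had a region open in HRG only. Among 13 other receptor kinase genes 3 had such a region (1 with equal numbers), and among 19 PI3K, AKT and mTORC1 genes 3 did (1 with equal numbers). The shares of their regions called were 8.51% and 7.32%, against 6.52% of all.

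Immediate early and AP-1 genes lay on both sides. Of 18 immediate early genes 3 had a region open in HRG only (4 with equal numbers) and 2, EGR1 and KLF4, one open in vehicle only (1 with equal numbers). Of the regions assigned to these genes 3.96% were open in HRG only, against 6.52% over all genes, and with equal numbers 5.75% against 2.63%. IER3 had 2 of them, at 78.9 and 80.7 (above) and at 20.4 and 25.4. IER2 carried a region of lower rank 5.18 kb downstream, at 79.6 and 72.6 in HRG against 84.1 and 86.5 in vehicle (-0.522 ± 0.0793, adjusted p = 0.0220). The 13 genes of AP-1 and related factors, whose promoters were open in all 4 lists, had 2 with a region open in HRG only (JUNB and MAFK). With equal numbers these were BATF3 and FOSL2, and JUN and JUND had one open in vehicle only. Of the 61 regions assigned to these genes 3.28% were open in HRG only, against 6.52% over all genes. With equal numbers the shares were 5.66% and 2.63%. Of all genes 0.095% had a region open in vehicle only with all peaks, and 2.65% with equal numbers. A region 2.15 kb from the start of JUNB, at a start of HOOK2, ranked lower (-0.283 ± 0.0520, adjusted p = 0.0379).

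Of 19 genes of feedback regulators of ERK 10 had a region open in HRG only (2 with equal numbers), and of their 135 regions 14 were called (10.4%, against 6.52% of all; 2.11% against 2.63% with equal numbers). DUSP6, the phosphatase that acts on ERK, had 3 single-peak regions of higher rank. At 18.2 kb upstream the percentiles were 86.4 and 89.1 in HRG and 66.4 and 72.5 in vehicle (0.587 ± 0.0764, adjusted p = 0.0142). A second region, over an exon 3.50 kb from the start, stood at 67.3 and 70.6 against 31.1 and 38.5 (0.829 ± 0.136, adjusted p = 0.0270). The third, 31.2 kb upstream, stood at 71.1 and 76.3 against 5.66 and 40.8 (1.52 ± 0.277, adjusted p = 0.0377). SPRY4 had 3 regions open in HRG only and 2 of higher rank among its 12. The one named, 16.0 kb upstream at chr5:142341937-142342703, stood at 86.4 and 85.1 against 64.6 and 73.6 (0.482 ± 0.0655, adjusted p = 0.0154). In BT474 it had a peak in 1 list, after HRG for 24 h at 3.18. All of these DUSP6 and SPRY4 calls were lost without the second HRG library (adjusted p from 0.0826 to 0.204).

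Of 17 genes of luminal factors and keratins 8 had a region open in HRG only (4 with equal numbers), and none had one open in vehicle only with all peaks (2 with equal numbers). Of their 133 regions 8.27% were open in HRG only, against 6.52% of all, and with equal numbers 3.51% against 2.63%. The region 16.8 kb upstream of KRT7 ranked at 51.1 and 47.8 in the HRG lists, and at 21.6 and 27.2 at baseline. BT474 had it open in every list. At 12.9 kb upstream of KRT19 a region stood at 49.3 and 39.8, and in BT474 at 12 h it had peaks after HRG (16.9 and 30.8) and none in vehicle. ELF3, an epithelial ETS factor gene, carried an exonic region of higher rank (chr1:202014816-202016464), at 72.8 and 70.4 against 26.3 and 43.8 (0.899 ± 0.110, adjusted p = 0.0132). No BT474 list had a peak there. TFAP2C had a region of higher rank 22.6 kb upstream (0.327, adjusted p = 0.0193) and one of lower rank 39.8 kb downstream (-0.461, adjusted p = 0.0455), and GRHL1 one of higher rank (0.536, adjusted p = 0.0444). Of 18 basal and mesenchymal genes 4 had a region open in HRG only (1 with equal numbers), 8.16% of their regions.

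Steroid receptor genes and steroid-responsive genes had 8 of 17 genes with a region open in HRG only (3 with equal numbers), 8.49% of their regions against 6.52% of all, and 3.53% against 2.63% with equal numbers. With all peaks 1 gene, PMEPA1, had a region open in vehicle only, 91.6 kb upstream (38.01 and 5.14), and with equal numbers 2 did, XBP1 and TMPRSS2. TMPRSS2, SLC45A3 and PMEPA1, steroid-responsive genes, each had an intronic region of higher rank (0.375, 0.640 and 0.612, adjusted p = 0.0262, 0.0262 and 0.0251). KLK2 had a promoter region open in HRG only with equal numbers, at 25.04 and 42.1. The promoter of PGR, the progesterone receptor, was called with all peaks at percentiles of 14.1 and 9.40.

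Genes of sterol and fatty acid synthesis, which SREBP factors control, had 5 of 19 with a region open in HRG only (2 with equal numbers), among them SREBF2 (21.1 and 3.34). These were 8.24% of their regions against 6.52% of all, and 3.23% against 2.63% with equal numbers. An intron of HMGCS1, an enzyme of the cholesterol pathway, carried a region of lower rank, at 44.9 and 39.4 against 54.97 and 58.7 (-0.823 ± 0.132, adjusted p = 0.0257). The study discusses 10 genes for HRG in BT474R, and so chose them with these samples in view. All 10 had promoters open in the 4 lists. At the strongest region over each of these promoters no rank difference passed the test. Another region over the ACTB promoter, named above, ranked lower after HRG (-0.422, adjusted p = 0.00509 by limma on single-peak regions). SREBF1 stood at 97.6 and 91.2 in HRG against 58.3 and 91.7 in vehicle (0.779, adjusted p = 0.321), where the first vehicle list stood apart and the second lay between the HRG lists. FASN differed by 0.00127 (adjusted p = 0.989).

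Glycolysis and hypoxia genes had 8 of 22 with a region open in HRG only and 5 with equal numbers. These were 9.76% and 6.93% of their regions, against 6.52% and 2.63% of all. The promoter of CA9, a carbonic anhydrase induced by hypoxia, ranked at 39.5 and 44.1 in the HRG lists (chr9:35673306-35674014). No BT474 list had a peak there, and in BT474R the vehicle lists at 24 h had it at 19.2 and 58.7. A region 10.7 kb upstream of LDHA, the lactate dehydrogenase gene, ranked higher, at 97.3 and 97.4 against 92.3 and 94.7 (0.371 ± 0.0487, adjusted p = 0.0142). PDK4, a kinase that inhibits pyruvate dehydrogenase, had one 46.2 kb downstream (0.533, adjusted p = 0.0217). Interferon genes had 2 of 21 with a region open in HRG only, cell cycle genes 2 of 14, TGF-beta and NF-kB genes 5 of 17 and HER2 membrane genes 2 of 14. The shares of their regions were 4.26%, 8.0%, 6.94% and 5.09%, against 6.52% of all, and with equal numbers 1, 1, 1 and 0 genes had such a region. The promoter of CCNE1, a cyclin gene, ranked lower (-0.448, adjusted p = 0.0455). Among the genes with most regions open in HRG only were MVB12B with 5, and AHNAK, BCOR and MCFD2 with 4 each. With equal numbers SULF2, which edits heparan sulfate, had 4.

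Lists that took no part in the calls were read next. Of the 1136 regions open in HRG only with equal numbers, 59.9 and 69.5% had a peak in the BT474R HRG lists at 24 h and 29.0 and 38.9% in vehicle at 24 h. At 1 h the shares were 65.7 and 65.9% after HRG and 50.7 and 49.7% in vehicle, and at baseline 38.5 and 36.4%. In BT474 at 12 h they were 48.5 and 49.2% after HRG and 30.7 and 29.8% in vehicle. EGF at 12 h in BT474R, which shares its vehicle lists with this comparison, gave 79.3 and 78.9%. The 673 regions open in vehicle only went the other way, with 40.4 and 38.8% after HRG at 24 h, 62.4 and 54.8% in vehicle at 24 h, 56.3 and 56.0% at baseline, and in BT474 at 12 h 38.9 and 37.6% after HRG against 49.2 and 47.1% in vehicle. At each of the times given for a set, the HRG lists did not overlap the vehicle lists. Values at 1 h are not given for the 673 regions. How often all merged regions show this order is not given here, so the order only describes these sets. The lists also differed in length. In BT474R, HRG lists held 55289 and 44351 peaks at 24 h (vehicle 41833 and 45799) and 52162 and 56334 at 1 h (vehicle 56494 and 54256). In BT474 at 12 h they held 53484 and 52986 (vehicle 49386 and 49767). The shares of all merged regions in these lists are not given here, and how far list length bears on the shares was not tested.

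The ranks of the single-peak regions were also read in libraries that the call had not used. Each fit named from here on, those of the interaction term among them, held only the regions with exactly 1 peak in every list of that fit. For HRG against vehicle in BT474 at 12 h, limma called 3346 of 41129 regions higher (8.14%) and 1623 lower (3.95%). Of the 530 regions of higher rank in BT474R, 399 could be tested there, 314 were called higher (78.7%) and 0 lower, with a median difference of 0.402 against -0.0336 over all regions. Of the 73 of lower rank 56 could be tested, 24 were called lower (42.9%) and 0 higher, with a median of -0.238. At the TTPAL region the difference in BT474 was 1.32 ± 0.0803 (adjusted p = 3.77e-05), at PITX1 1.11 ± 0.0626 (2.54e-05) and at the first DUSP6 region 0.623 ± 0.0797 (0.00141). At LDHA it was 0.454 ± 0.0418 (0.000291). STAC2 differed by 0.0575 ± 0.195 (0.871) in BT474.

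For HRG against vehicle in BT474R at 24 h, 0 of 35265 regions (0%) passed in either direction by limma, and 1266 higher and 574 lower had an unadjusted p under 0.05. Of the 482 regions of higher rank that could be tested at 24 h, 459 had a positive difference (95.2%), as did 44.7% of all regions, and the median was 0.247 against -0.0175. Of 64 lower regions 4 were positive. At 1 h, 1 of 45276 regions passed as higher (0.00221%) and 0 as lower (0%), with 2117 and 1772 at an unadjusted p under 0.05. There 369 of 477 higher regions were positive (77.4%, against 48.9% of all), with a median of 0.0835.

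Whether the effect of HRG differed between lines or times was tested by the interaction term in limma. Between BT474R and BT474 at 12 h, 6 of 24196 regions (0.0248%) had a larger and 23 (0.0951%) a smaller difference in BT474R. Between 12 and 1 h in BT474R, 10 of 27324 (0.0366%) had a larger and 0 (0%) a smaller one. Between 12 and 24 h it was 0 of 26993 (0%) in both directions, with 490 and 432 at an unadjusted p under 0.05. HRG and EGF at 12 h, both in BT474R, differed at 8 regions higher in HRG (0.0242%) and 4 lower (0.0121%) of 32991, with 2613 and 2415 at an unadjusted p under 0.05, which does not show that the ligands act alike.

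**Figure D5:**
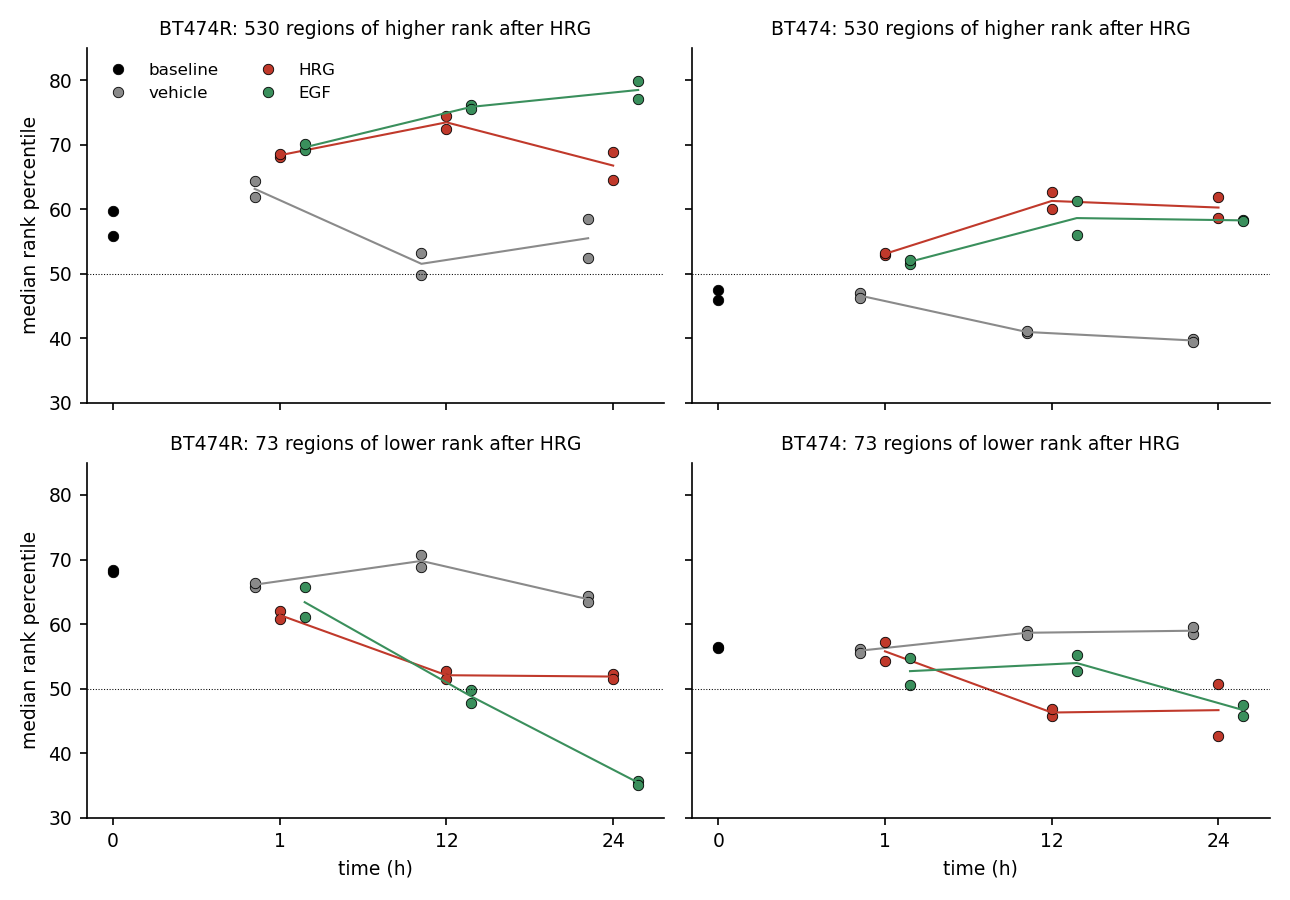
Median rank percentile of the single-peak regions of higher rank (530, upper panels) and lower rank (73, lower panels) among all 29332, in each of the 40 lists by time (h, not to scale), for BT474R (left) and BT474 (right). Points are libraries and lines join the means of each arm. The BT474R vehicle and HRG lists at 12 h chose the regions; in the lists that did not, the HRG lists of BT474 at 12 h stood at 59.95 and 62.6 against 40.9 and 41.1 in vehicle.

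The vehicle and HRG lists at 12 h chose these regions, so their values at that time are a description. Over the 530 higher regions the median rank percentile, for which all 29332 regions have a median of 50, was 55.8 and 59.7 at baseline in BT474R, 64.4 and 61.9 in vehicle at 1 h, 49.8 and 53.3 in vehicle at 12 h and 52.5 and 58.5 in vehicle at 24 h. After HRG it was 68.1 and 68.6 at 1 h, 72.5 and 74.5 at 12 h and 64.6 and 68.9 at 24 h. EGF lists at 24 h stood highest, at 77.1 and 79.8. For the 73 lower regions the vehicle lists ran from 63.4 to 70.7 over the 3 times, and the HRG lists from 60.8 to 62.0 at 1 h and from 51.4 to 52.7 at 12 and 24 h.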

How the data were processed

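ATAC-seq peak lists were taken as the authors deposited them, 1 per library. Per the study's methods and the submitters' processing notes, reads were checked with FastQC, trimmed with Trim Galore 0.6.6 and aligned to hg38, mitochondrial and blacklisted reads were removed, and peaks were called per library with Genrich, with options not given in the sources used here. The authors deposited for each peak a score (column 7, the area under the peak's significance curve, 200 or more in every list) with its −log10 p-value. Only scores, positions and summits were used. Read totals were not used here, so depth and its precision are unknown.

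Peaks were merged, ranked and annotated with GENCODE 44 in Python 3.11.15 (pandas 2.3.3, scipy 1.17.1), and ranks were tested with limma 3.58.1 in R 4.3.3 with Benjamini-Hochberg adjustment at 0.05. Scripts were tested on simulated data. Named regions were the 6 of highest percentile per direction of the presence call (4 with equal numbers), the 6 of smallest p per direction, at most 4 per gene list and direction, the genes with most regions, and the genes the study discusses. From the single-peak fit, chosen after seeing the data, the 12 of smallest p per direction and the list members were named. Some regions that this rule names, among them those on chromosomes 8 and 18, are not reported here. Members and lists were chosen with earlier results of these data known. Of the list symbols, RON was unmatched. Alternatives were equal numbers, score and width limits, other merging, other scalings, summed scores, a replicate block and leaving out each library.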

Additional observations from a re-analysis of the deposited data

Results flagged for a closer look

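The effect of HRG at 12 h in BT474R differed from its effect elsewhere at 3 of the named single-peak regions, by the interaction term in limma with Benjamini-Hochberg adjustment. At GRIK3 the effect on the rank (normal score) was 0.695 in BT474R and 1.20 in BT474 at 12 h, a difference of -0.505 (adjusted p = 0.0378). At ITGA3 the effects were 0.425 and 0.794, a difference of -0.369 (adjusted p = 0.0378). Both regions ranked higher after HRG in both lines, and less so in BT474R. Against 1 h in BT474R, GRIK3 had effects of 0.670 at 12 h and -0.0767 at 1 h, a difference of 0.747 (adjusted p = 0.000903). FAM174B had effects of 0.723 and 0.0908, a difference of 0.633 (adjusted p = 0.0341). Groups of 2 libraries were too small for a search for single libraries far from the rest.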

How the results depend on the processing

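Presence calls were the most sensitive to list length. Against 3541 regions open in HRG only and 28 in vehicle only, equal numbers gave 1136 and 673, the top 20000 peaks 706 and 501, scores of 400 or more 2489 and 10, and peaks trimmed to 400 bp 3622 and 268. Leaving out a library gave 3641 to 9756 and 50 to 644. The median rank percentile difference turned from 5.46 to -0.746 with equal numbers, and the promoter share difference moved from -4.54 to -1.202 points. Regions open in HRG only had a peak in more HRG than vehicle lists by 19.0 points in BT474 at 12 h and 2.61 in BT474R at 1 h, which became 18.6 and 15.6 with equal numbers. The AP-1 share of 32.9% became 41.3% within 250 bp, 41.5% with equal numbers and 45.3% in single-peak regions. List genes with a region open in HRG only numbered 70 (27.3%, against 10.6% of all genes). They numbered 23 within 10 kb (8.98% against 3.31%) and 29 with equal numbers (11.3% against 3.59%). A single-peak region of higher rank, open in all 4 lists, was assigned to 13 list genes (5.08% against 1.79%). By regions the share open in HRG only was 7.80% against 6.52%.

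Rank calls of 256 higher and 9 lower became 487 and 85 on centred log2 scores, 341 and 16 after quantile normalization, 638 and 88 with all 20 BT474R libraries, 458 and 52 on summed scores, and 530 and 73 in single-peak regions (775 and 99 with all 20 libraries). Leaving out a library gave 66 to 992 higher and 7 to 36 lower, and in single-peak regions 21 to 2011 and 4 to 373 (887 and 105 without the short vehicle list). HRC turned from 1.14 to -0.00358 on summed scores. The replicate numbers were not shown to pair the libraries (correlation of deviations 0.0687 over 2 pairs); with a replicate block 398 and 22 regions passed, and in single-peak regions 2011 and 671. Over the alternatives, values of named regions kept their call in 97 cases, lost it in 22 and turned in 1 for rank. They kept it in 177 and lost it in 57 for single-peak rank, and in 68 and 16 for presence. The causes of these changes were not tested. Without read totals, a lack of a peak cannot be told apart from low depth.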
